A study of Mus musculus with 4 samples.

Results

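The interferon-induced transmembrane (IFITM) family was followed in the mouse cell lines TS1 and TS2 through 6 listed members, Ifitm1, Ifitm2, Ifitm3, Ifitm5, Ifitm6 and Ifitm10, out of 19938 genes that the array measured. A member was taken wherever a probe set named it as its single gene. For every gene with several probe sets the brightest by mean over the 4 arrays stood for the gene. All 6 members were found, on 9 probe sets, and 0 further probe sets named a member together with other genes. Because the paralogs have similar sequences, all 9 sets are shown: 3 for Ifitm2, 2 for Ifitm1 and 1 for each of the other members. The probe set of a gene was thus chosen by its mean intensity over all arrays, and the family was chosen by name with the difference of Ifitm3 between the lines already known, so the values of Ifitm3 are given as a description with no test.

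TS1 and TS2 are described in the labels as lines derived from CD4+ T lymphocytes, with no treatment. Both were grown in Iscove-Dulbecco's medium that held murine interleukin-9, which T cells can use to grow, so every array carries that background. Total RNA of biological duplicates A and B of each line went onto 1 Affymetrix array each, which gives n = 2 per line. Nothing in the labels states whether the duplicates were separate cultures, so p-values may measure a spread that is partly technical. Each of the groups is a single cell line, and no genotype or clone is given.

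IFITM proteins are small membrane proteins that hinder the fusion of enveloped viruses with the membranes of the cell. Ifitm1 lies mainly at the cell surface, and Ifitm2 and Ifitm3 mainly in endosomes and lysosomes. Interferons raise the transcripts of these 3 genes through interferon-stimulated response elements (ISRE), and some cell types, T cells among them, express family members without added interferon. Ifitm3, under the name fragilis, is also known as an early gene of mouse primordial germ cells. Ifitm5 is a gene of bone-forming cells, and Ifitm10 is little studied.

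The sequences at the starts of the 3 brightest members are shown because these neighbouring paralogs read so differently in the TS1 line. They come from RefSeq on build GRCm38.p6, which also held windows for the other members, and run 5′ to 3′ on the strand of the gene. Capitals mark matches to GAAANNGAAA, a core of the ISRE, searched on both strands. The first 3 stretches are the 250 bases before the annotated start, at chr7:141010745-141010994 (minus strand) for Ifitm3, chr7:140955962-140956211 (minus strand) for Ifitm2 and chr7:140967826-140968075 (plus strand) for Ifitm1. The last pair are 30-base stretches around the matches, at chr7:141010714-141010743 for Ifitm3 and chr7:140955988-140956017 for Ifitm2.
Ifitm3: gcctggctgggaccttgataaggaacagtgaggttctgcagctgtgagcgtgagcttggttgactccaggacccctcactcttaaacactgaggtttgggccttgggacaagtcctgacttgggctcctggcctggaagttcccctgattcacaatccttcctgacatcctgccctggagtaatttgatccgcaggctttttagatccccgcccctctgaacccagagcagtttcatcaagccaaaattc
Ifitm2: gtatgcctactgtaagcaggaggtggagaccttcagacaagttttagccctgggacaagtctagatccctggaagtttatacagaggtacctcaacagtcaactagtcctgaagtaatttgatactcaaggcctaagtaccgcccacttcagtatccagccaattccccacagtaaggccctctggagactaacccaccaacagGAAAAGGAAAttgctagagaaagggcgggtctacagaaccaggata
Ifitm1: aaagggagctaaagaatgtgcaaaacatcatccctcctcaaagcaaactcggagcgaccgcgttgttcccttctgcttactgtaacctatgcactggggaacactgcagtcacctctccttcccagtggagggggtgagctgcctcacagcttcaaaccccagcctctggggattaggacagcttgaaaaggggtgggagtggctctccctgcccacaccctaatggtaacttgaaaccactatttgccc
Ifitm3 match site: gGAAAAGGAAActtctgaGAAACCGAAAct
Ifitm2 match site: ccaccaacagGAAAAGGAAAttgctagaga

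In the full windows of 300 bases, which add the first 50 bases of the gene, Ifitm3 held 2 matches to GAAANNGAAA, both just after its annotated start, at positions 3 to 12 and 20 to 29. The match of Ifitm2 lay before its start, from -46 to -37, with the same letters as the first match of Ifitm3. No match was in the windows of Ifitm1, Ifitm5, Ifitm6 and Ifitm10, and 3.44% of all 32851 windows of that length held at least 1. TTCNNNGAA, a core of the gamma-activated site, was found once in Ifitm3, from 14 to 22 and overlapping the later of its ISRE matches, and once in Ifitm6, from -10 to -2, against 8.3% of all windows. These matches describe letters and are no evidence of binding. In global alignments of the windows, the Ifitm2 and Ifitm3 pair had the most identical positions of the 15 pairs, 169 bases or 56.3% of 300. The fewest, 143 or 47.7%, were shared by Ifitm6 and Ifitm10. Ifitm5 and Ifitm10, which are not neighbours, reached 54.3%. For Ifitm10 only the first of 3 windows was aligned. No unrelated windows were aligned, so these identities do not show relatedness.

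The arrays gave background for reading these levels. Over 35556 probe sets the array medians lay between 88.6 and 92.5 on the linear scale, and the 10th percentile between 16.1 and 16.9. On the log2 scale used below, this is a median near 6.5 and a 10th percentile from 4.01 to 4.08. Pearson's r over probe sets (no independent replicates) came to 0.992 within TS1, 0.994 within TS2 and 0.969 to 0.976 between lines. Of the T cell markers, 8 of 10 were measured. Cd3d, Cd4, Cd5 and Thy1 stayed below the median of every array, and Cd3e and Cd247 were higher in TS2. Cd3g read 10.52 on TS1 A but 6.07 on TS1 B. Cd28 read 4.66 and 4.38 in TS1, 7.14 on TS2 A and 4.95 on TS2 B. The summed intensity of the 8 markers was 1858 on TS1 A, 448 on TS1 B and 9116 to 10822 in TS2, and without Cd3g it was 393, 381 and 6772 to 7778. Among other cell types, the sums ran over the 4 arrays from 156 to 165 for 4 B cell markers, from 260 to 387 for 5 macrophage markers, from 336 to 488 for 5 fibroblast markers and from 192 to 206 for 5 primordial germ cell markers. The mast cell sum ran from 7417 to 10104, most of it from Fcer1a, the alpha chain of the high-affinity IgE receptor, which read 12.7 to 13.1 on every array. Within these lists limma called Kit (difference -1.90), Pdgfra (-1.78) and Cd68 (-0.64) higher in TS1, and the mast cell protease gene Mcpt4 read 6.60 on TS2 A but 10.10 on TS2 B.

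Ifitm3 was near the bottom of the scale in TS1 and among the bright transcripts in TS2. Its intensity was 13.9 (A) and 26.3 (B) in TS1, and 4081 (A) and 3489 (B) in TS2. In log2 terms these are 3.80, 4.72, 11.99 and 11.77, so the TS1 A reading lay below the 10th percentile of its array and both TS2 readings above the 90th, which was at 10.6. The line means differed by 7.62 (TS2 minus TS1, log2, SE 0.31, n = 2 arrays per line), which is 197-fold, and the size was exceeded by no other gene. Since the TS1 readings sit where background makes up most of a value, the fold is uncertain: with 32 added to every intensity before taking logs the difference was 6.20. In bulk RNA, fewer cells with the transcript and less transcript per cell cannot be told apart.

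Ifitm1 was bright on every array of both lines. Set 1 read 13.44 (A) and 12.89 (B) in TS1, and 13.75 (A) and 13.73 (B) in TS2. The lines did not overlap, but TS1 B stood lowest by a wide margin and TS1 A lay 0.31 below TS2 A. The difference of 0.58 (SE 0.19, 95% interval 0.078 to 1.08) did not pass limma's test (Benjamini-Hochberg adjusted p = 0.128 over all genes). Set 2 read 12.67, 12.00, 13.20 and 13.15 in the same order of arrays, a difference of 0.84 (adjusted p = 0.140 over all probe sets by limma). Without TS1 A the difference of Ifitm1 was 0.86, and without TS1 B it was 0.30. Such a fit takes its error from the TS2 duplicates, 0.019 apart for Ifitm1, and from limma's prior variance, fitted over all genes. It leaves out the TS1 spread, so its p is not given.

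Ifitm2 was bright in both lines as well, and its TS1 duplicates lay far apart. Set 1 read 11.90 (A) and 10.56 (B) in TS1, and 12.11 (A) and 12.08 (B) in TS2. TS1 A was thus much closer to the TS2 arrays than to its own duplicate. The other sets showed the same arrangement, with 11.17, 9.85, 11.43 and 11.37 for set 2 and 11.20, 9.58, 11.30 and 11.24 for set 3. The difference between line means was 0.87 (SE 0.43, 95% interval -0.24 to 1.97), and limma did not call it (adjusted p = 0.265). The 3 sets agreed in size, with 0.87, 0.89 and 0.88. Without TS1 A the difference was 1.54, and without TS1 B it was 0.20. The error of both fits comes from the TS2 duplicates, 0.027 apart, and from limma's prior variance, fitted over all genes. It leaves out the 1.34 between the TS1 duplicates, so no p is given for them.

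Ifitm5 read slightly above the median of every array and Ifitm6 and Ifitm10 below it, and the arrays of all 3 overlapped between lines. Ifitm5 read 6.83 (A) and 6.68 (B) in TS1, and 6.86 (A) and 6.67 (B) in TS2. Its difference was 0.011 (95% interval -0.28 to 0.31, limma adjusted p = 0.967). Ifitm6, which lies next to Ifitm3 on the chromosome, read 4.72, 4.48, 4.65 and 4.69 in that order, a difference of 0.070 (95% interval -0.22 to 0.36, limma adjusted p = 0.745). Ifitm10, which lies apart from the cluster on the same chromosome, read 5.75, 5.98, 5.90 and 5.88, a difference of 0.024 (95% interval -0.26 to 0.31, limma adjusted p = 0.923). The sign of each of these 3 differences changed when single arrays were left out.

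**Figure D1:**
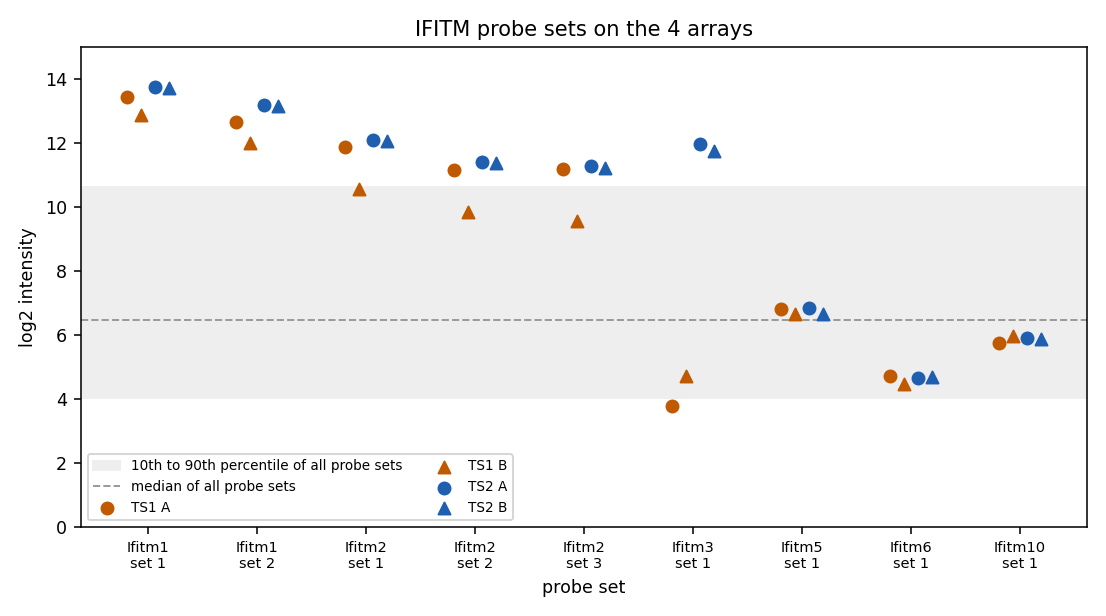
log2 intensity of the 9 IFITM probe sets (horizontal axis) on each of the 4 arrays, with TS1 in orange, TS2 in blue, circles for duplicate A and triangles for duplicate B; the grey band runs between the 10th and 90th percentiles of all probe sets. Ifitm3 reads 3.80 and 4.72 in TS1 and 11.99 and 11.77 in TS2, and on all 5 sets of Ifitm1 and Ifitm2 the TS1 B triangle lies lowest.

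Of the 5 members other than Ifitm3, Ifitm1 and Ifitm2 had arrays that did not overlap between lines, both higher in TS2. Over all genes the share was 58.4% (29.1% higher in TS2). The arrays of Ifitm3 did not overlap either, but its difference was known beforehand, so it is left out of this comparison. At an adjusted p of 0.05, limma called 13.5% of all genes, 5.05% in favour of TS2 and 8.45% of TS1. The share depends on brightness: with the dimmest 50% of probe sets left out, 2900 of 10194 genes were called. In the main fit, limma called 0 of the 5 members other than Ifitm3. An unadjusted p under 0.05 by limma was found for 1 of these 5 (Ifitm1, 0.0310) and for 5862 of all 19938 genes. In the fit over all probe sets, 5.2% were called and 52.9% had arrays that did not overlap. Of the 8 sets other than that of Ifitm3, 0 were called and 5, of Ifitm1 and Ifitm2, did not overlap. By limma 2 sets, both of Ifitm1, had an unadjusted p under 0.05, a level not counted over all probe sets. The median difference of the 5 members other than Ifitm3 was 0.070, against 0.013 over all genes. In TS1, where Ifitm1 and Ifitm2 were bright, the Ifitm3 set read at most 26.3 in intensity, which bounds what these relatives added to its signal there. What Ifitm3 transcripts add to the Ifitm1 and Ifitm2 sets in TS2 was not tested.

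The genes around the cluster were read to see how far along the chromosome a difference extended. In the RefSeq gene order of GRCm38.p6 the cluster runs Ifitm5, Ifitm2, Ifitm1, Ifitm3 and Ifitm6. Of the 5 protein-coding genes on each side, all measured, 1 was called in favour of TS2, 1 in favour of TS1 and 8 not at all, 20% called against 13.5% of all genes. Pgghg, a glycosidase gene next to Ifitm5, read 7.73 and 7.57 in TS1 and 9.14 and 9.21 in TS2, higher in TS2 by 1.53 (SE 0.10, limma adjusted p = 0.00186). Sirt3, a mitochondrial deacetylase gene and the farthest neighbour on that side, read 8.42 and 8.43 in TS1 and 7.59 and 7.48 in TS2, a difference of -0.89 (limma adjusted p = 0.00647). On the other side B4galnt4, Pkp3, Sigirr, Ano9 and Ptdss2 did not pass, with differences from -0.34 for Ptdss2 to 0.41 for Pkp3. Beside Ifitm10, 7 of 10 neighbours were measured and 1 passed, Ctsd, which encodes the lysosomal protease cathepsin D. Ctsd was higher in TS2 by 1.20 (limma adjusted p = 0.0112), but did not pass in the linear model without moderation (adjusted p = 0.196). With single arrays left out its difference ran from 1.02 to 1.37.

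**Figure D2:**
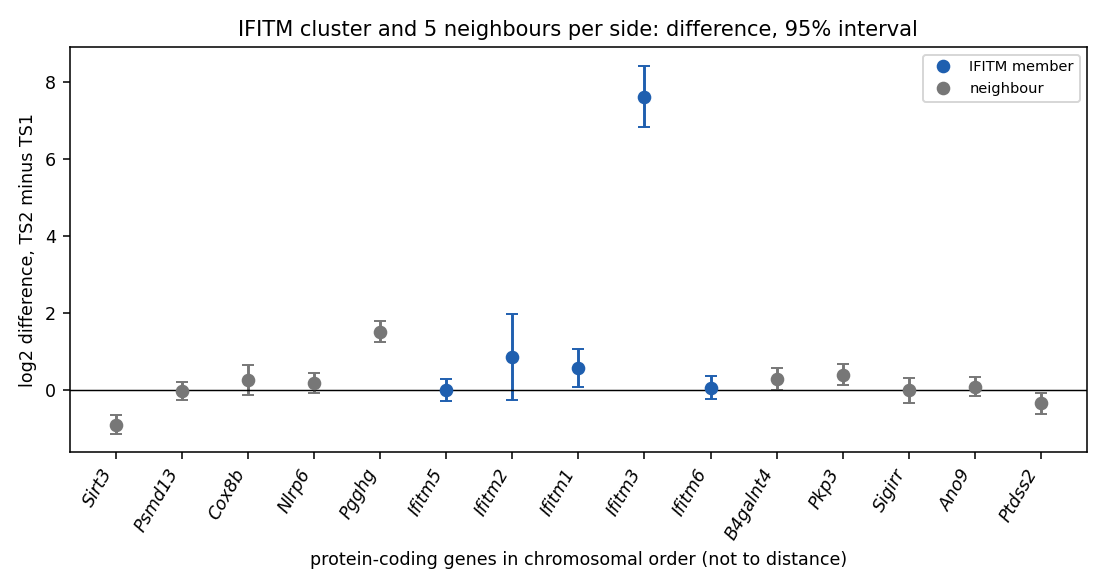
log2 difference, TS2 minus TS1, with its 95% interval from limma, for the 5 IFITM genes of the cluster (blue) and 5 protein-coding neighbours on each side (grey), in chromosomal order without distances. Ifitm3 stands at 7.62, Pgghg at 1.53, and Ifitm5 and Ifitm6 at 0.011 and 0.070. The interval of Ifitm3 is a description and no test, since its difference was known when the family was chosen.

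The error of the members combined the distance between duplicates with limma's prior variance, fitted over all genes. Between the TS1 arrays Ifitm2 differed by 1.34 (A minus B), and 104 of 19938 genes, 0.522%, were at least that far apart. Ifitm3 differed by -0.92, with TS1 B higher (1.3% of genes at least as far), and Ifitm1 by 0.56 (3.96%). TS1 A was thus higher for Ifitm1 and Ifitm2 and lower for Ifitm3, the latter among dim readings. The TS2 duplicates of these members were close: 0.027 for Ifitm2, 0.019 for Ifitm1 and 0.23 for Ifitm3. Other interferon-related genes lay apart on the TS1 arrays too. Ifi27, an interferon-induced gene, read 8.66 on TS1 A and 7.27 on TS1 B, and Ifi35 read 9.49 and 8.73. Mx2 (3.96 and 4.62) and Ifit2 (7.54 and 8.02) lay apart the other way. All of these are examples named after their values were seen. Of the measured antiviral effectors 12 of 19 read higher for duplicate A of TS1 than for B (median 0.15), and of the interferon receptors and signalling genes 9 of 14 (median 0.28). Over all genes 44.2% read higher for duplicate A, and the median was -0.026. The T cell marker sum was also higher for duplicate A, 1858 against 448, but Cd3g accounts for nearly all of that gap: the other 7 markers summed to 393 and 381. The part of this difference in the Ifitm values was not tested.

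**Figure D3:**
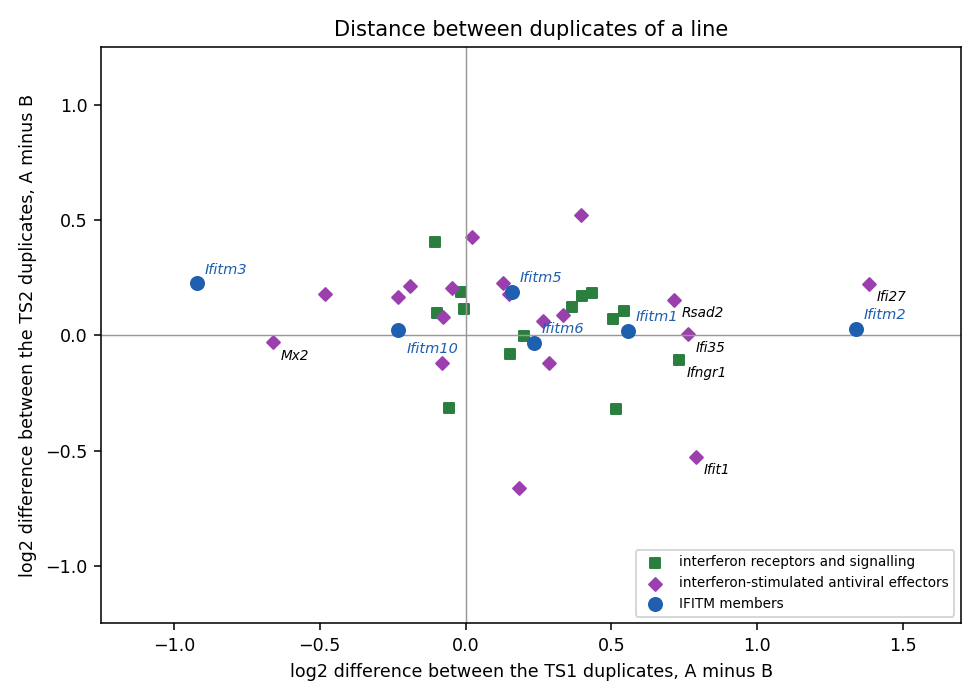
Difference between duplicates A and B in TS1 (horizontal axis, log2) and in TS2 (vertical axis, log2) for the IFITM members (blue circles), interferon receptors and signalling genes (green squares) and antiviral effectors (purple diamonds). Ifitm2 lies at 1.34 and Ifi27 at 1.38 on the TS1 axis, both within 0.23 of 0 on the TS2 axis.

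Genes that carry interferon signals to IFITM promoters were next described as a list. This and the other gene lists were chosen with earlier results of these data known. Their called shares are thus descriptions and give no independent support. Of 14 measured interferon receptors and signalling genes, limma called 5 in favour of TS2 and 0 in favour of TS1, leaving 9. This is 35.7% called against 13.5% of all genes. By limma 7 and 0 had an unadjusted p under 0.05, against 5862 of all 19938 genes in either direction. The share over all genes includes many dim ones: with the dimmest 50% of probe sets left out, limma called 2900 of 10194 genes. The part of brightness in the shares of this and the later lists was not tested. The list's median difference was 0.41. The receptor chains of the type I interferons gave 0.030 for Ifnar1 and -0.21 for Ifnar2, and neither passed. Ifngr1, the ligand-binding chain of the interferon-gamma receptor, read 9.83 and 9.10 in TS1 and 11.33 and 11.44 in TS2, higher by 1.92 (SE 0.25, limma adjusted p = 0.0121). Irf1, a transcription factor induced by interferon gamma, was higher by 1.28 (adjusted p = 0.0182 by limma), and Socs1, which inhibits Janus kinases, by 0.94 (adjusted p = 0.00724). The value of Irf1 is from the brighter of its 2 probe sets, and with the mean of both sets the difference was 0.82. The kinases Jak2 and Tyk2 were higher by 0.64 and 0.48, and Tyk2 is named after its values were seen. Without moderated variances the count of 5 became 0. Tyk2 did not pass in limma with an intensity trend (adjusted p = 0.0534) or median centring (0.0555). A fit without 1 array takes its error from the duplicates of 1 line and the prior variance, so its calls are not counted. With single arrays left out, the difference ran from 0.87 to 1.02 for Socs1, 0.55 to 0.73 for Jak2 and 0.38 to 0.58 for Tyk2.

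Other antiviral genes of the interferon response differed in part. Of 19 measured effectors, limma called 5 in favour of TS2 and 1 in favour of TS1, leaving 13. This is 31.6% called against 13.5% of all genes, with a median difference of 0.15 against 0.013. By limma 6 and 1 had an unadjusted p under 0.05, against 5862 of all 19938 genes in either direction. Ifi27 was higher in TS2 by 2.09 (SE 0.45, limma adjusted p = 0.0447) and had a wide TS1 spread. Its difference was 2.78 and 1.39 with TS1 A or TS1 B left out. With TS2 A or TS2 B left out it was 1.97 or 2.20. Ifi27 did not pass in limma when the prior was fitted robustly (adjusted p = 0.0758), without moderation (0.313) or with the offset of 32 (0.0634). Oasl1, an oligoadenylate synthetase-like gene, read 6.82 and 6.80 in TS1 and 8.57 and 8.15 in TS2, higher by 1.55 (limma adjusted p = 0.00631). Oasl2 was higher by 1.41 (adjusted p = 0.0207 by limma), Bst2, the gene of the virus-tethering protein tetherin, by 1.01 (adjusted p = 0.0139) and Oas3 by 0.81. Oas3 is named after its values were seen. Zc3hav1, an RNA-binding antiviral factor, was higher in TS1 (difference -0.57, limma adjusted p = 0.024), but did not pass without moderation (0.17). With single arrays left out its difference ran from -0.63 to -0.51. Of other interferon-induced genes that did not pass, Mx1 read 4.25 to 4.47 and Ifit3 4.38 to 4.51, below every array median, while Ifit2 read 7.53 to 8.02, above every median. Mx1, Ifit3 and Ifit2 were picked as examples once their values were known. Without moderated variances the counts of 5 and 1 both became 0. Calls are not counted in fits that leave 1 array in a line. With single arrays left out, the difference of Oasl1 ran from 1.34 to 1.76.

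**Figure D4:**
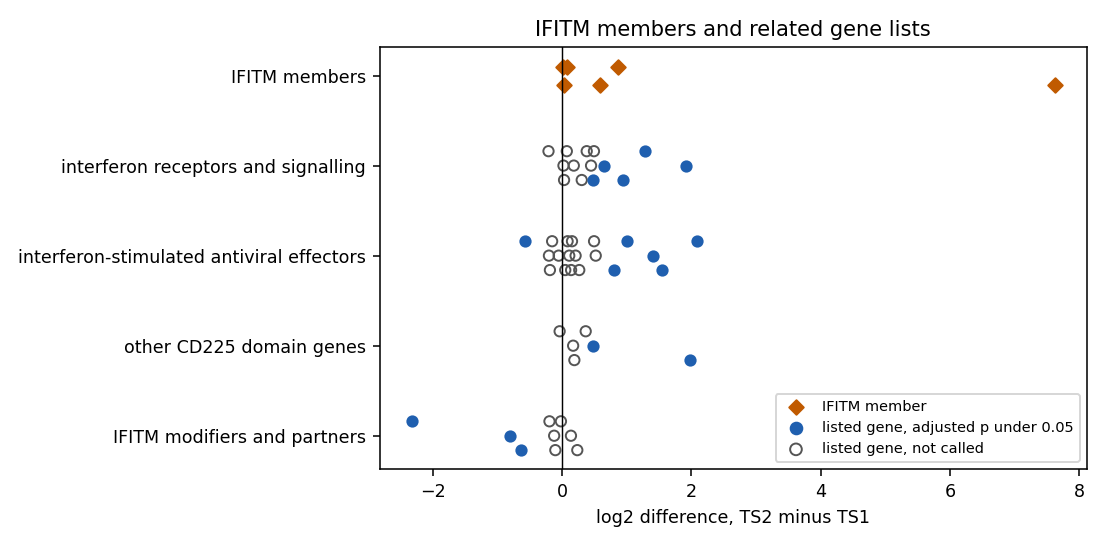
log2 difference, TS2 minus TS1, for the 6 IFITM members (orange diamonds) and for the measured genes of 4 related lists, filled where limma's adjusted p was under 0.05 and open otherwise; vertical position within a row has no meaning. Ifitm3 lies at 7.62, and the listed genes run from -2.33 for Cr2 to 2.09 for Ifi27.

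Relatives that carry the same CD225 domain were few. Of 6 measured, limma called 2 in favour of TS2 and 0 in favour of TS1, leaving 4, with a median difference of 0.28. This is 33.3% called against 13.5% of all genes. By limma 3 and 0 had an unadjusted p under 0.05, against 5862 of all 19938 genes in either direction. Syndig1, a membrane protein gene known from synapses, read 6.21 and 6.17 in TS1 and 8.00 and 8.33 in TS2, higher by 1.98 (SE 0.13, limma adjusted p = 0.00194). Tmem91 was higher by 0.48 (limma adjusted p = 0.042), a call lost with an intensity trend in the prior variance, which left Syndig1 alone. With single arrays left out, the difference of Tmem91 ran from 0.40 to 0.57. Ifitm7, a mouse paralog on another chromosome and no listed member, read 6.52 and 6.66 in TS1 and 6.82 and 7.10 in TS2, a difference of 0.36 that did not pass (limma adjusted p = 0.144).

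Enzymes that modify IFITM proteins and proteins known to bind or assist them formed the last list. Of 9 measured, limma called 0 in favour of TS2 and 3 in favour of TS1, leaving 6, with a median difference of -0.12. This is 33.3% called against 13.5% of all genes. By limma 1 and 3 had an unadjusted p under 0.05, against 5862 of all 19938 genes in either direction. Cr2, the complement receptor CD21, read 7.24 and 7.02 in TS1 and 4.83 and 4.79 in TS2, a difference of -2.33 (SE 0.11, limma adjusted p = 0.000748). Fkbp11, a prolyl isomerase gene whose product binds Ifitm5, differed by -0.81 (limma adjusted p = 0.0147). Zmpste24, a membrane metalloprotease gene, differed by -0.63 (limma adjusted p = 0.0214). The palmitoyltransferase Zdhhc20 and the ubiquitin ligase Nedd4, which act on Ifitm3 protein, differed by -0.12 and -0.018, and neither passed; the pair are named after their values were seen. Without moderated variances the count of 3 became 0. With single arrays left out, the difference ran from -2.44 to -2.22 for Cr2, -0.93 to -0.70 for Fkbp11 and -0.71 to -0.55 for Zmpste24.

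The genes whose pattern over the 4 arrays was most like that of Ifitm3 were found by the root mean square distance between log2 profiles, each centred on its own mean. The closest were Stat4, the transcription factor of interleukin-12 signals, at 0.50, and the mitochondrial membrane protein gene Fundc2 at 0.78. They were followed by Cd3e, a CD3 chain of the antigen receptor, at 0.78, Cd200r4, a CD200 receptor gene, at 0.83, and Ptprc, the leukocyte common antigen, at 0.86. Of these 5, Stat4 (4.41 and 4.65) and Cd200r4 (3.34 and 4.32) also read lower for duplicate A of TS1 than for B, as Ifitm3 did. With 4 arrays of 2 lines, this likeness reflects mainly the size of the difference between the lines.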

How the data were processed

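Biotin-labelled cRNA of 4 total RNA samples was hybridised to Affymetrix arrays, per the labels' protocols. The authors used Affymetrix Expression Console and RMA, per the submitters' processing notes, with no version given. Linear, between-array normalized intensities were deposited, of which 0 were missing or not positive. The plan assumed log2 values, so log2 was taken and the tests were kept. Detection calls, probe sequences and scan batches are not analysed here.

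Of 35556 probe sets, 21789 had 1 gene symbol in the platform annotation, 1621 several and 12146 none. Symbols were updated by Entrez number through RefSeq (GRCm38.p6; 21698 found). The brightest set per gene gave 19938 genes. The lines were compared with limma 3.58.1 in R 4.3.3 (lmFit, eBayes, 2 residual degrees of freedom) and Benjamini-Hochberg adjustment, called under 0.05. With 2 arrays per line, 0.333 is the smallest p that exact permutation (two-sided) allows. The fit was tested on simulated data, of which no result is given or relied on here. Members, lists and tests were chosen with earlier results of these data known.

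Named were all members, up to 4 called genes per list, called neighbours, and the 5 genes nearest in profile to each called member whose arrays did not overlap, which was Ifitm3; its call served this choice alone. Predicted, clone-like, olfactory, vomeronasal and small RNA symbols stayed out of the last group. Promoters were aligned with Biopython 1.88. The alternatives were a replicate block, each array left out, other prior variances or none, centring, quantile normalization, filters on dim sets, an offset of 32, and the mean of a gene's sets.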

Additional observations from a re-analysis of the deposited data

How the results depend on the processing

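The difference of Ifitm3 kept its sign under all 14 alternatives, from 6.20 with 32 added to the intensities to 8.09 without TS1 B. Leaving out single arrays gave 7.16 to 8.09 for Ifitm3, 0.30 to 0.86 for Ifitm1, 0.20 to 1.54 for Ifitm2, -0.084 to 0.11 for Ifitm5, -0.047 to 0.19 for Ifitm6 and -0.091 to 0.14 for Ifitm10. Signs turned for Ifitm5 without TS1 B (-0.069) and without TS2 A (-0.084), for Ifitm6 without TS1 B (-0.047) and for Ifitm10 without TS1 A (-0.091). Of the 14 alternatives, 10 keep all arrays, and under these neither Ifitm1 nor Ifitm2 passed. Their adjusted p from the linear model ran from 0.0915 to 0.408 and from 0.213 to 0.561. With 1 TS1 array left out, the error comes from the close TS2 duplicates and the prior variance over all genes. It then leaves out the TS1 spread. Ifitm6 and Ifitm10 have no value where the filters on dim sets remove them.

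The replicate letters are not stated to pair samples, and the A minus B differences of the lines correlated at -0.029 over genes. With the letter as a replicate block, limma called 664 genes higher in TS2 and 1002 in TS1, against 1006 and 1685. The block left the members' calls as they were and gave 3 interferon receptor and signalling genes, 4 effectors and 1 CD225 gene higher in TS2, and 0 effectors higher in TS1. Under it Jak2 (limma adjusted p = 0.0519), Oas3 (0.0547), Tmem91 (0.0885), Tyk2 (0.0868) and Zc3hav1 (0.0507) did not pass. Leaving out single arrays gave 420 to 861 genes higher in TS2 and 559 to 1337 in TS1 overall. By list it gave 1 to 5 signalling genes, 1 to 7 effectors and 1 to 2 CD225 genes higher in TS2, and 0 effectors and 1 to 3 modifiers and partners higher in TS1. An intensity trend gave 1 CD225 gene, and leaving out the dimmest 50% gave 1 modifier or partner, since Cr2 and Fkbp11 are then not tested. Without moderated variances the linear model called 0 genes in every list and overall (4156 at an unadjusted p under 0.05). Of 19 called genes in the lists and neighbourhoods, some also lost their call under another alternative that kept all arrays and tested them. These were Ifi27, Jak2, Oas3, Tmem91, Tyk2 and Zc3hav1. The number of arrays, and for Ifitm3 the unknown background, limit the precision.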
